A study of Homo sapiens with 6 samples.

Results

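DNA replication genes were followed through the induction of neural crest from human embryonic stem cells. The 47 genes were listed by name by their place in the replication machinery, and all 47 were found among the 23284 genes of the authors' deposited table. Poly-adenylated RNA came from WA01, an established human embryonic stem cell line of wildtype genotype, in 6 libraries. Libraries fell into 3 groups of 2, namely undifferentiated embryonic stem cells (ES, day 0), pre-neural crest cells (preNC, day 3) and neural crest cells (NC, day 5). Neural crest is the migratory embryonic cell population that forms peripheral neurons, glia, pigment cells and part of the face. The labels give 1 culture protocol for all 3 groups, with 3 µM CHIR99021 (a GSK3 inhibitor that activates WNT signalling), the ROCK inhibitor Y-27632 at 10 µM, 2% B27, 0.5% bovine serum albumin and Matrigel at 20000 cells per cm2, so they do not say which of these the day 0 cells received. Each group has a single FPKM value per gene (fragments per kilobase of transcript, scaled to the number of fragments), with both libraries combined by the authors. No value per library was used, so no spread between replicates can be shown, the depth is unknown, and all 6 libraries come from 1 cell line.

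Eukaryotic replication starts at origins bound by the origin recognition complex, where CDC6 and CDT1 load the ring of MCM2 to MCM7 in G1 phase. The kinase CDC7 with DBF4 then lets CDC45 and GINS join that ring to form the active helicase, and the polymerases alpha, delta and epsilon copy the opened strands. Embryonic stem cells are known for a short G1 phase and a large share of cells in S phase, and many replication genes are transcribed under E2F factors as cells enter S phase.

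The labelled stages were set against marker genes. Of 10 pluripotency genes tested, 8 were called lower on day 3 than on day 0, and 10 of 11 neural crest genes tested were called higher on day 5 than on day 3. On day 3 against day 0, 7 of 10 neural crest genes tested were already called higher and 2 lower. These were FOXD3 (17.9, 0.876 and 15.4 FPKM on days 0, 3 and 5) and ETS1 (7.27, 1.11 and 6.14). Neither was called on day 5 against day 0. The other 2 pluripotency genes, SOX2 and LIN28A, were at 341 and 555 FPKM on day 3, above their 203 and 396 on day 0, without a call. Of the 6 neuronal genes tested, 4 were called higher on day 3 than on day 0, STMN2 among them at 27.4 against 2.60 FPKM. The summed FPKM of all 8 listed neuronal genes was 206 on day 0, 329 on day 3 and 173 on day 5. Most of it was TUBB3, at 202, 292 and 136, and NEUROD1 and ISL1 were at or below 0.117 on every day. Between day 3 and day 5, 3 of the 6 tested were called lower and 2 higher, POU4F1 (0.139, 5.71 and 26.3 FPKM on days 0, 3 and 5) and ELAVL4 (0.198, 0.249 and 0.883). The summed FPKM of 8 mesendoderm genes was 5.73, 4.19 and 2.86, with TBX6 the largest part (3.81, 1.70 and 1.11). Of the 4 mesendoderm genes tested on day 3 against day 0, T alone was called, higher at 0.777 against 0.134 FPKM. The part of these other cell types in the values below was not tested. In such bulk samples, a smaller share of cycling cells and less RNA per cell cannot be told apart.

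The replication genes were among the more strongly expressed genes on each day and were mostly highest on day 3. Their median FPKM was 35.2 on day 0, 38.1 on day 3 and 29.8 on day 5, which lay at the 83.0th, 84.4th and 81.6th percentile (the median of the 47 ranks) of the 15375 genes tested in all 3 comparisons. The day 3 value was the highest of the 3 in 39 members (83.0%), the day 0 value in 8, and the day 5 value in 0. Over those 15375 genes, day 3 was highest in 30.2%, and over the 8243 of them with an FPKM of at least 5 on every day, in 35.7%. The median ratio of a member's highest to its lowest day was 1.46-fold, against 1.59-fold over the 15375 genes and 1.40-fold over the 8243. It passed 2-fold in 3 members (6.38%), TYMS, MCM5 and POLD3, against 32.3% of the 15375 genes and 13.9% of the 8243.

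**Figure D1:**
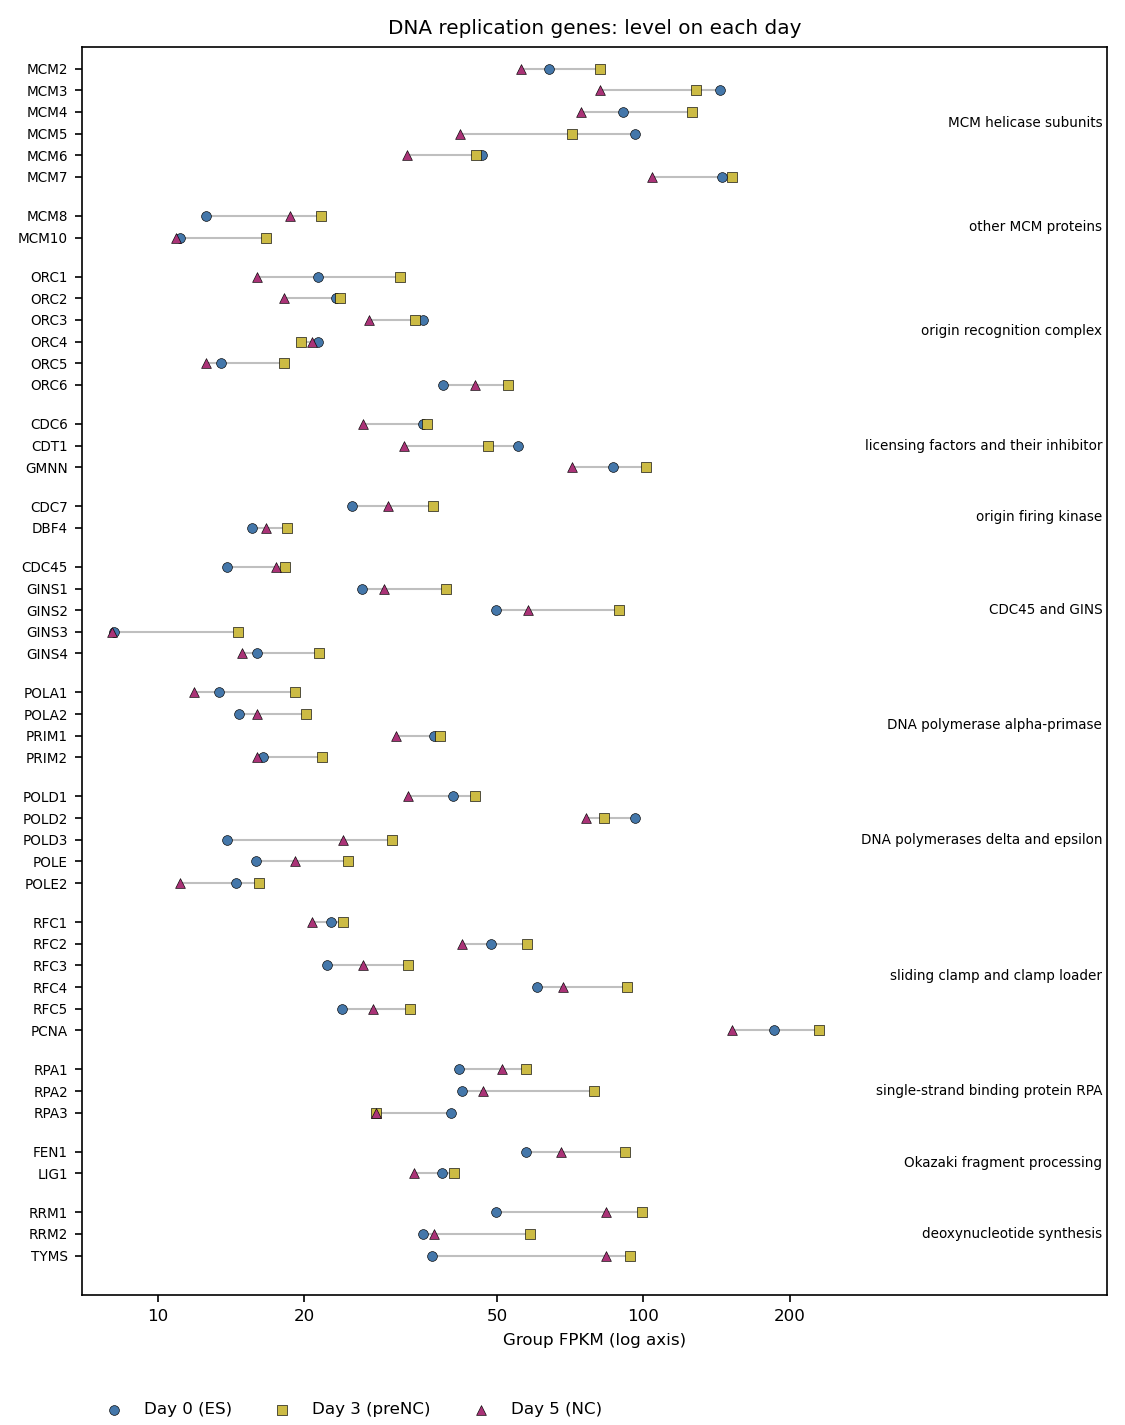
Group FPKM (log axis) of the 47 replication genes on day 0 (ES, circles), day 3 (preNC, squares) and day 5 (NC, triangles), grouped by role, with a grey line spanning each gene's 3 values. Squares lie farthest right in 39 of 47 genes, and PCNA reached the highest value, 229.6 on day 3.

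A gene was called where the q value in the authors' deposited table, from the Cuffdiff test, was below 0.05. On day 3, 9 of the 47 members were called higher than on day 0 and 0 lower, against 8.96% higher and 11.6% lower over all 16231 tested genes. At an unadjusted p below 0.05, 16 members were higher and 0 lower, against 13.9% and 15.9% of all genes. On day 5, 0 members were called higher and 5 lower than on day 3, against 5.93% and 6.68% of 15932 tested genes, and at an unadjusted p below 0.05 the counts were 0 and 12, against 9.84% and 11.3%. Between day 5 and day 0, 3 members were called higher and 3 lower, against 12.2% and 14.7% of 16409 tested genes, and at an unadjusted p below 0.05 the counts were 4 and 3, against 17.6% and 20.3%. The share of members called higher on day 3 was thus 19.1%, the share called lower on day 5 than on day 3 was 10.6%, and each share called between day 5 and day 0 was 6.38%, below the background in both directions.

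The medians showed the same order. The members' median log2 FPKM ratio was 0.43 for day 3 over day 0, against 0.04 over all tested genes, and -0.43 for day 5 over day 3, against -0.05. It was -0.09 for day 5 over day 0, against -0.01, and this last sign turned to 0.04 when FPKM was rescaled without 3 dominant small RNA genes. Day 3 lay above day 0 in 39 of 47 members, called or not (83.0%, against 52.8% of all tested genes), and day 5 lay below day 3 in 45 of 47 (95.7%, against 53.8%). These comparisons share the day 3 libraries and are not independent of each other. The rescaling shifted all day 5 over day 3 ratios by 0.15, took the median of expressed genes from -0.06 to 0.09, and left 42 of 47 members below their day 3 value. No called member could change sign under that rescaling or under centring on the median gene. The shifts were at most 0.15, and the smallest log2 change of a called member was 0.68 (FEN1, day 3 over day 0).

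**Figure D2:**
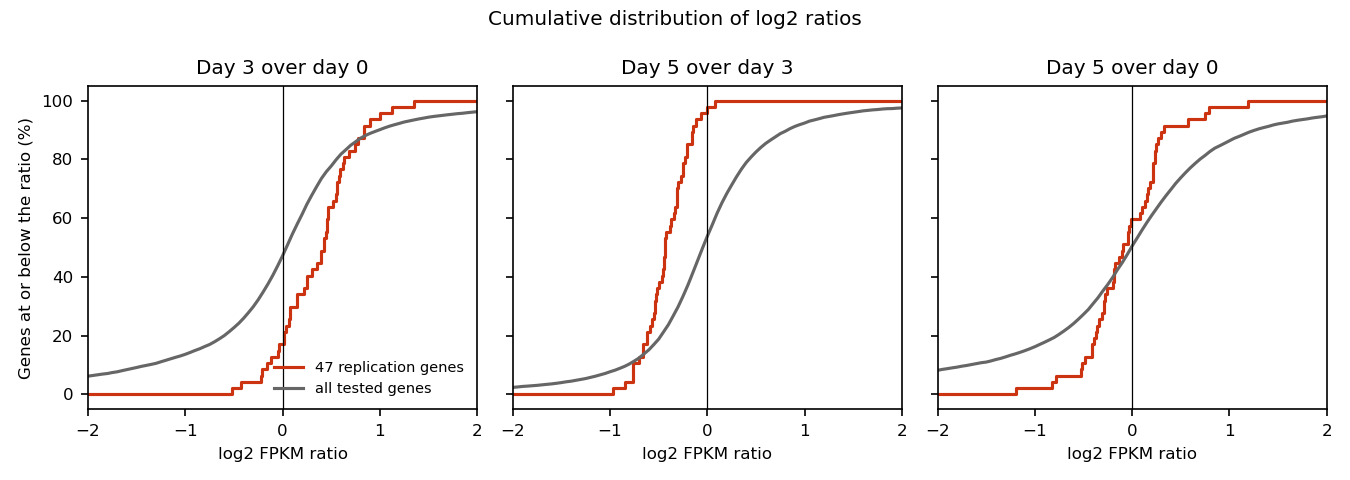
Cumulative share of genes (percent) at or below each log2 FPKM ratio, for the 47 replication genes (red) and all tested genes (grey), in the 3 comparisons. The members' curve lies right of that of all genes around 0 for day 3 over day 0 (medians 0.43 and 0.04), left of it for day 5 over day 3 (-0.43 and -0.05), and close to it for day 5 over day 0 (-0.09 and -0.01).

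Because many members moved in the same direction, their promoters were searched for an E2F-type motif. RefSeq promoters (GRCh38.p14, 250 bases before to 50 after a gene's start) were given for 41 of the 47 members. The motif was any of TTTCCCGC, TTTCGCGC, TTTGCCGC and TTTGGCGC on either strand, with overlapping matches merged into 1. It was present in 21 of the 41 members (51.2%), against 3.99% of the 27305 genes with a RefSeq promoter. The share was 6.26% of the tested genes among them and 7.64% of those at an FPKM of at least 5 on every day. CCAAT, the letters bound by NF-Y, on either strand, was present in 24 of the 41 (58.5%), against 39.7% of all genes with a promoter, 43.0% of the tested ones and 45.5% of those at an FPKM of at least 5. By role, the E2F-type motif was present in 4 of 4 MCM helicase subunits, 3 of 3 licensing genes and 3 of 4 CDC45 and GINS genes, and in 1 of 6 origin recognition genes. Of the 14 members called in any comparison, 10 had a promoter entry and 6 of these held the motif (60.0%), against 15 of 31 members not called (48.4%). MCM4, MCM5, POLD3 and RPA2, all called, had no entry, so the MCM count leaves out both ring subunits called on day 5 against day 3. A match is a string of letters and shows no binding. Below are 5 promoters of members with a call, read on the strand of the gene, 5′ to 3′, with the matches in capitals. GINS2 (chr16:85688905-85689204, minus strand) and GINS3 (chr16:58392221-58392520, plus strand) were called higher on day 3, MCM3 (chr6:52284693-52284992, minus strand) and CDT1 (chr16:88803539-88803838, plus strand) lower on day 5 than on day 0, and RRM1 (chr11:4094435-4094734, plus strand) is shown as a called member with no match.
GINS2: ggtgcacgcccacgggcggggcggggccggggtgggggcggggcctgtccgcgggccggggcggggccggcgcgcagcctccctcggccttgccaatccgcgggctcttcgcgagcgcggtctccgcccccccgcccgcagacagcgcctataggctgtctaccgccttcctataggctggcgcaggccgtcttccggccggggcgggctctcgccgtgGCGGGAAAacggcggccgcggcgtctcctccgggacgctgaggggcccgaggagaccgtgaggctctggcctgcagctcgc
GINS3: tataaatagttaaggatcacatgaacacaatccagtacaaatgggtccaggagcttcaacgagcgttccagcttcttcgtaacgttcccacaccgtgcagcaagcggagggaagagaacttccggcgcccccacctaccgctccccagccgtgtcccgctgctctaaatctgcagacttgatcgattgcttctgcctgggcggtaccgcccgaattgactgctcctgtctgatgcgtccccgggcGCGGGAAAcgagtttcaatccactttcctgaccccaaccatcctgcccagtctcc
MCM3: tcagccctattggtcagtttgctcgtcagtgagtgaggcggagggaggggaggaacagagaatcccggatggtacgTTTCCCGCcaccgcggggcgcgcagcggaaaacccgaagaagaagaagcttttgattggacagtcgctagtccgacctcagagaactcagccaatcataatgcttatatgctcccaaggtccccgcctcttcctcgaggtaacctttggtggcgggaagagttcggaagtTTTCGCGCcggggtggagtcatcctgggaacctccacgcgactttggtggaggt
CDT1: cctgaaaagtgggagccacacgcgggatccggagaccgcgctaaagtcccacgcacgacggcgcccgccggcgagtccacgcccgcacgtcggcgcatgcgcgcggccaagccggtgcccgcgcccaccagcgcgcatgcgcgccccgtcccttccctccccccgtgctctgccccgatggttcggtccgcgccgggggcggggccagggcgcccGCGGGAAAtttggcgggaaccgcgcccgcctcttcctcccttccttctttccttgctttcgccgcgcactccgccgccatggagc
RRM1: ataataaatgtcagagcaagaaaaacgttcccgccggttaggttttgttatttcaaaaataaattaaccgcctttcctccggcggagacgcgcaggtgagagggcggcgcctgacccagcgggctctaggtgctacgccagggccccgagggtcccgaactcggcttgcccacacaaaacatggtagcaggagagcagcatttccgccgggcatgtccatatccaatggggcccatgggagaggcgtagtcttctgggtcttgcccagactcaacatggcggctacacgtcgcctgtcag
In these windows the match of CDT1 and that of GINS2 begin 35 and 31 bases before the start, and that of GINS3 begins 5 bases before it. Over all members, 21 of 25 matches begin before the start. The searched window holds 250 bases before the start and only 50 after it, so this count shows no preference for a side. Of the promoters printed, those of GINS2 and GINS3, called higher on day 3, and of CDT1, not called on that day, hold the letters GCGGGAAA. Any part of the motif in these calls was not tested.

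The 3 members that make deoxynucleotides, RRM1, RRM2 and TYMS, all rose on day 3, and TYMS had the largest rise of any member. Of 8 other enzymes of nucleotide supply, in contrast, 0 were called higher on day 3, against 8.96% of all tested genes. At an unadjusted p below 0.05 the count was also 0, against 13.9%, and 6 lay below day 0, against 47.2%. For the 3 members, the median log2 ratio of day 3 over day 0 was 1.00. TYMS, thymidylate synthase, was at 36.7 FPKM on day 0, 93.9 on day 3 and 83.9 on day 5. Its day 3 value was 2.56-fold that of day 0 (log2 1.35 ± 0.54) with q = 0.00939 in the authors' deposited table, where ± is the standard error implied by the deposited test statistic. Day 5 remained 2.28-fold above day 0 (log2 1.19 ± 0.52). TYMS lies in hg19 at chr18:596998-712662, a merged locus it shares with CLUL1, ENOSF1 and C18orf56, and ENOSF1 is known to overlap it in antisense, so reads of the pair may not be separable. RRM1, the large subunit of ribonucleotide reductase (chr11:4115924-4160106), was at 49.8, 99.3 and 83.7 FPKM on days 0, 3 and 5. The RRM1 level rose 1.99-fold on day 3 (log2 1.00 ± 0.40) and was still called higher on day 5 than on day 0 (log2 0.75 ± 0.39). RRM2, the small subunit (chr2:10262695-10271546), also rose on day 3, to 58.5 against 35.1 FPKM on day 0 (log2 0.74 ± 0.37). RRM2 was at 37.1 FPKM on day 5, not called against day 3 (log2 -0.66 ± 0.41) or against day 0 (log2 0.08 ± 0.37). The ratio of RRM1 to RRM2 in FPKM was 1.42 on day 0, 1.70 on day 3 and 2.25 on day 5, a pair picked after its values were seen.

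All 6 subunits of the MCM ring had their lowest value on day 5, as did all 3 of CDC6, CDT1 and GMNN. None of the 6 was called on day 3, also at an unadjusted p below 0.05 (3 above and 3 below day 0). The median log2 ratio of day 5 over day 3 was -0.61 for the ring and -0.50 for those 3 genes. MCM5 (chr22:35796116-35820495) was at 95.9 FPKM on day 0, 71.2 on day 3 and 42.0 on day 5. Its day 5 level fell by 0.76 ± 0.30 (log2) against day 3 and by 1.19 ± 0.30 against day 0, a 2.28-fold lower level (q = 0.000596 in the authors' deposited table). MCM3 (chr6:52128812-52149582) was at 81.2 FPKM on day 5, against 144 on day 0, and was called lower (log2 -0.82 ± 0.36), while its step from day 3, at 128 FPKM, was not called (log2 -0.66 ± 0.35). MCM4 (chr8:48872763-48890719) was at 90.6, 126 and 74.5 FPKM on days 0, 3 and 5, and was called lower on day 5 than on day 3 (log2 -0.76 ± 0.40) but not against day 0 (log2 -0.28 ± 0.39). MCM2 (63.8, 81.2 and 55.9), MCM6 (46.6, 45.3 and 32.6) and MCM7 (145, 152 and 104) were not called in any comparison. MCM7 shares its merged locus with 6 other genes. In FPKM, which is scaled to length, MCM7 was 3.11 times MCM6 on day 0, 3.35 times on day 3 and 3.17 times on day 5. The loaded ring holds both proteins in equal number, but these are RNA values and do not give protein amounts. MCM5 stood at 1.06 times MCM4 on day 0 but at 0.566 and 0.564 times on days 3 and 5, a pair chosen after its values were seen.

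Outside the ring, MCM8 was called and MCM10 was not. MCM8, which acts in homologous recombination repair rather than in licensing (chr20:5931298-5975831), rose to 21.7 FPKM on day 3, against 12.6 on day 0 (log2 0.78 ± 0.38), and was at 18.7 on day 5 with no call against either day. MCM10, which helps activate the assembled helicase, was at 11.1, 16.7 and 10.9 FPKM without a call.

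In the origin recognition complex, 1 of 6 genes was called. Day 5 lay below day 3 in 5 of the 6, called or not, at a median log2 ratio of -0.35. ORC1, the subunit that is made and destroyed with the cell cycle in human cells (chr1:52838501-52870143), was at 21.4 FPKM on day 0, 31.5 on day 3 and 16.0 on day 5. Its day 5 level fell by 0.97 ± 0.39 (log2) against day 3, with q = 0.00438 in the authors' deposited table, the smallest q of any member in that comparison. ORC4, at 21.4, 19.7 and 20.8 FPKM, had the smallest range of all 47 members (log2 0.12), in a merged locus it shares with ACVR2A and MBD5. ORC6 was the highest of the complex on each day, at 38.6, 52.7 and 44.9 FPKM, and ORC5 the lowest, at 13.5, 18.2 and 12.6. No member of the complex other than ORC1 was called, with ORC2 at 23.3, 23.7 and 18.2 FPKM and ORC3 at 35.1, 33.9 and 27.2.

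Of the genes that load the ring, only CDT1 was called. CDT1 (chr16:88870186-88875666) was at 55.3, 47.8 and 32.2 FPKM on days 0, 3 and 5, and was lower on day 5 than on day 0 (log2 -0.78 ± 0.29). GMNN, which encodes geminin, the inhibitor that binds CDT1, was at 86.7, 101 and 71.1 FPKM without a call, so that the ratio of GMNN to CDT1 was 1.57 on day 0, 2.11 on day 3 and 2.21 on day 5 (a pair picked after its values were seen, with no test). CDC6 was at 35.2, 35.8 and 26.4 FPKM. The kinase subunits CDC7 (25.1, 36.9 and 29.8) and DBF4 (15.6, 18.5 and 16.7) were not called, and DBF4 varied by only 0.25 on the log2 scale.

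Subunits of GINS peaked on day 3 in every case. GINS2 (chr16:85711280-85722588), the most abundant, rose to 89.1 FPKM on day 3, against 49.8 on day 0 (log2 0.84 ± 0.33), and was at 57.8 on day 5. GINS3 (chr16:58426298-58440048), the least abundant of all 47 members, was at 8.12, 14.6 and 8.06 FPKM on days 0, 3 and 5. It was called higher on day 3 (log2 0.84 ± 0.43) and lower again on day 5 than on day 3 (log2 -0.85 ± 0.45), and its day 5 over day 0 ratio was -0.01 ± 0.45 on the log2 scale. GINS1 (26.3, 39.3 and 29.3), GINS4 (16.0, 21.5 and 14.9) and CDC45 (13.9, 18.3 and 17.5) had the same highest day without a call.

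Among the polymerases, POLD3 stood out. POLD3, an accessory subunit of polymerase delta (chr11:74303629-74353765), was at 13.9 FPKM on day 0, 30.4 on day 3 and 24.1 on day 5. The day 3 rise was 2.18-fold (log2 1.13 ± 0.40) with q = 0.000596 in the authors' deposited table, a value tied with MCM5 for the smallest of any member, and was also called higher on day 5 than on day 0 (log2 0.79 ± 0.40). The other subunits of the same enzyme did not share this course: POLD1, the catalytic subunit, was at 40.6, 45.1 and 32.8 FPKM, and POLD2, a regulatory subunit, at 96.2, 82.9 and 76.1, neither with a call. POLD2 thus stood at 6.92 times POLD3 on day 0 and at 2.73 and 3.16 times on days 3 and 5. The difference in course between subunits was not tested. POLE, the catalytic subunit of the leading-strand polymerase epsilon, was at 15.9, 24.7 and 19.2 FPKM, with log2 0.63 ± 0.33 for day 3 over day 0 and no call, and POLE2 was at 14.5, 16.2 and 11.1. The primer-making complex had no call, with POLA1 at 13.4, 19.2 and 11.9 FPKM (q of 0.0508 for day 5 over day 3 in the authors' deposited table), POLA2 at 14.7, 20.2 and 16.0, PRIM1 at 37.0, 38.1 and 31.0, and PRIM2 at 16.5, 21.8 and 16.0.

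The sliding clamp and its loader had no call in any comparison. PCNA, the clamp that tethers the polymerases, was the most abundant member on every day, at 186 FPKM on day 0, 229.6 on day 3 and 152 on day 5, with log2 0.30 ± 0.41 for day 3 over day 0 and -0.59 ± 0.40 for day 5 over day 3. All 6 genes of the group were highest on day 3, and RFC3 alone reached an unadjusted p below 0.05 (0.0432 for day 3 over day 0 in the authors' deposited table). RFC4, at 60.3, 92.4 and 68.4 FPKM, was the highest of the loader, with an implied standard error of 1.12 for day 3 over day 0 against a median of 0.38 over the members. It shares a merged locus with EIF4A2 and several small RNA genes. RFC1 ranged least (22.7, 24.1 and 20.8), RFC2 was at 48.5, 57.7 and 42.3, RFC3 at 22.3, 32.8 and 26.4, and RFC5 at 23.9, 33.0 and 27.8.

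Of the subunits of RPA, which coats single-stranded DNA, RPA2 alone was called. RPA2 (chr1:28218049-28241236) was at 42.3 FPKM on day 0, 79.0 on day 3 and 46.8 on day 5. The gene rose on day 3 (log2 0.90 ± 0.36) and fell again on day 5 (log2 -0.76 ± 0.36 against day 3). RPA1, the large subunit, was at 41.7, 57.4 and 51.2 FPKM and RPA3, the small subunit, at 40.2, 28.1 and 28.1, without a call, and RPA3 had the lowest log2 ratio of day 3 over day 0 of all members (-0.52 ± 0.38). The 3 values thus lay within 2.07 FPKM of each other on day 0, while RPA2 was 2.81 times RPA3 on day 3. RPA3 lies in a merged locus it shares with LOC729852. The difference in course between these subunits was not tested. In the group that finishes lagging-strand fragments, FEN1, the flap nuclease (chr11:61560109-61564714), rose to 91.6 FPKM on day 3, against 57.3 on day 0 (log2 0.68 ± 0.31, with q = 0.0471 in the authors' deposited table), and was at 67.8 on day 5. LIG1, the ligase that seals the fragments, was at 38.5, 40.7 and 33.7 FPKM without a call.

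**Figure D3:**
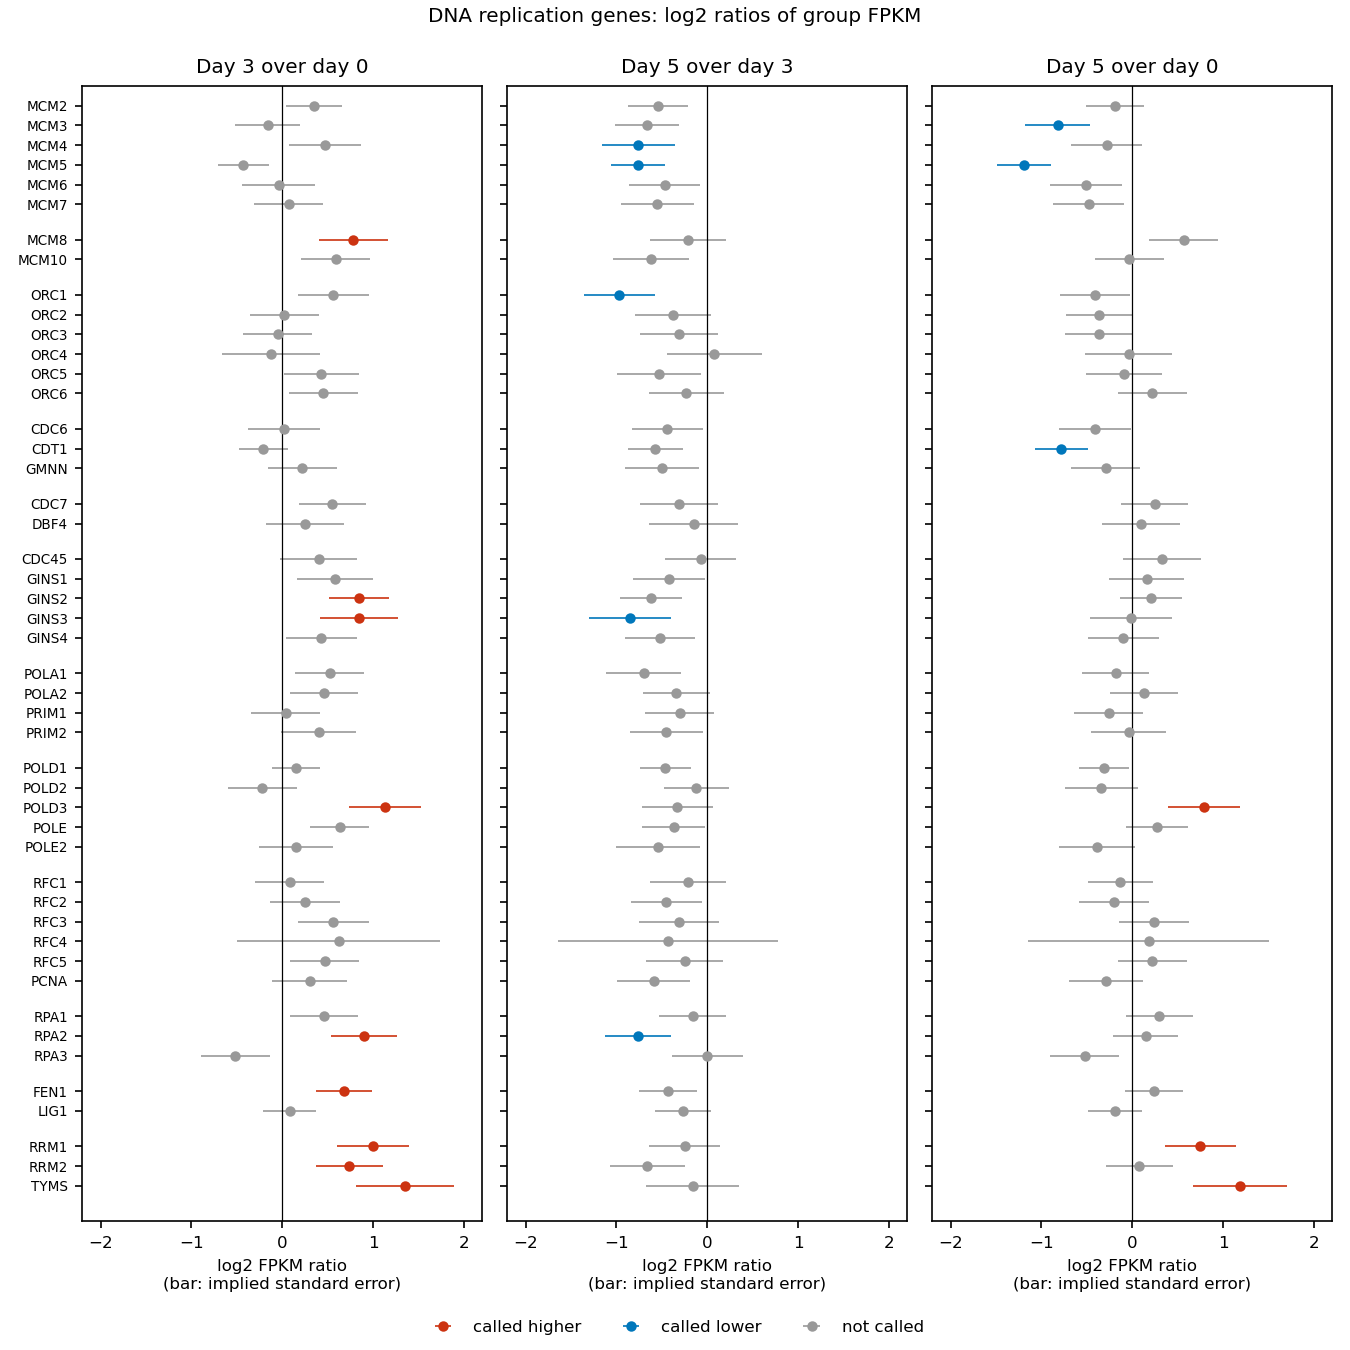
Log2 FPKM ratios of the 47 replication genes by role in the 3 comparisons, with bars for the standard error implied by the deposited test statistic, red where called higher, blue where called lower and grey where not called. The 9 genes called on day 3 include all 3 of deoxynucleotide synthesis, and all 6 MCM ring subunits lie below 0 for day 5 over day 3.

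Error limits how far these calls can be read. The median implied standard error of the members was 0.38 for day 3 over day 0 and 0.40 for day 5 over day 3, close to the size of the median change, so a member without a call is not shown to be constant. With p recomputed by treating the deposited statistic as a standard normal value, only POLD3 of the 9 remained called higher on day 3, 0 of the 5 lower on day 5 than on day 3, and only MCM5 was called between day 5 and day 0.

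Related genes of replication, in lists outside the 47, were read for the same comparisons. Of 21 other fork and origin factors tested (TICRR had no row under that symbol), day 3 against day 0 gave 2 calls upward and 1 downward, with a median log2 ratio of 0.29. Over all tested genes, 8.96% were called higher and 11.6% lower in that comparison, and 5.93% and 6.68% on day 5 against day 3. The upward count of the list was thus near the background. CLSPN, which encodes the checkpoint mediator claspin, rose to 11.5 FPKM on day 3, against 5.73 on day 0 (log2 1.01), and DONSON, a factor of helicase assembly, to 30.2, against 18.1 (log2 0.73). POLD4, the small subunit of polymerase delta, fell to 7.31 FPKM on day 3, against 17.1 on day 0 (log2 -1.22), in a locus merged with 2 other genes. On day 5, RECQL4 was lower than on day 3 (18.0 against 31.9 FPKM), as was RIF1, a factor of replication timing (10.4 against 17.9), and TONSL was lower than on day 0 (16.8 against 27.3). The list's median for day 5 over day 3 was -0.32, with 0 called higher and 2 lower. At an unadjusted p below 0.05, 0 were higher and 6 lower, against 9.84% and 11.3% of all tested genes.

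Chromatin assembly factors had 1 call of 8 on day 3, upward, against 8.96% called higher over all tested genes. The called gene was UHRF1, which recruits the maintenance methyltransferase DNMT1 to replicated DNA. UHRF1, in a locus merged with another gene, was at 51.6 FPKM on day 3, against 24.3 on day 0 (log2 1.09), and was still called higher on day 5, at 40.1 (log2 0.72 against day 0). CHAF1A, a subunit of the histone chaperone CAF-1, was lower on day 5 than on day 0 (31.3 against 52.4 FPKM). The list's medians were 0.34 for day 3 over day 0 and -0.36 for day 5 over day 3. Of 8 other nucleotide enzymes, 1 was lower on day 3 and 0 higher, with a median of -0.26, against 11.6% called lower and 8.96% higher over all tested genes. SAMHD1, which breaks down deoxynucleotides, fell to 4.10 FPKM on day 3, against 11.7 on day 0 (log2 -1.51), and was at 2.17 on day 5, in a locus it shares with another gene. DUT, which clears dUTP, was lower on day 5 than on day 0 (31.1 against 63.4 FPKM, log2 -1.03).

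E2F and RB regulators rose in 3 and fell in 0 of 16 tested genes on day 3 (median 0.35), and fell in 3 and rose in 0 on day 5 against day 3 (median -0.27). At an unadjusted p below 0.05, 6 were higher and 0 lower on day 3, against 13.9% and 15.9% of all tested genes. On day 5 against day 3, 5 were lower and 0 higher at that threshold, against 11.3% and 9.84%. By the Cuffdiff q, 8.96% of all tested genes were higher and 11.6% lower on day 3, and 6.68% lower and 5.93% higher on day 5 against day 3. E2F7, a repressor of the family, was at 16.7 FPKM on day 3, against 7.90 on day 0 (log2 1.08), and at 18.0 on day 5. E2F6, another repressor, was called higher on day 5 than on day 0 (10.5 against 5.76 FPKM, log2 0.87), as was RB1, which restrains the activator E2Fs (13.6 against 7.69, log2 0.82, in a locus merged with another gene). Both E2F2, an activator, and LIN54 lay below 5 FPKM on every day. E2F2 was at 1.12, 3.29 and 1.66 on days 0, 3 and 5, with both steps called, and LIN54 was the third gene called on day 3 (3.98 against 2.22). MYBL2, a late cell cycle activator, fell to 41.1 FPKM on day 5, against 77.2 on day 3 (log2 -0.91), and TFDP2 fell to 6.92, against 12.0. E2F1 was at 16.4, 16.7 and 13.9 FPKM without a call.

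Regulators of S-phase entry were called higher in 3 and lower in 1 of 14 tested genes on day 3 (median 0.51), against 8.96% and 11.6% of all tested genes. CCND1, which encodes cyclin D1 and is a known WNT target, was at 105 FPKM on day 3, against 32.6 on day 0 (log2 1.68), CCND2 at 49.9, against 28.7, and the CDK inhibitor CDKN1C at 31.9, against 8.77 (log2 1.86). CDK6 was at 2.77, 0.715 and 5.14 FPKM on days 0, 3 and 5, with both steps called. CCND3, which encodes cyclin D3, was lower on day 5 than on day 0 (5.72 against 12.3 FPKM, log2 -1.10). CCNE1, which encodes cyclin E1, fell to 9.27 FPKM on day 5, against 17.1 on day 3 (log2 -0.89). Mitosis genes, by comparison, had a median log2 ratio of -0.06 for day 3 over day 0, with CENPF, a kinetochore gene, alone called (46.8 against 25.5 FPKM), and of 0.07 for day 5 over day 3. In that step 0 of 16 were called in either direction by the Cuffdiff q, against 5.93% higher and 6.68% lower over all tested genes. At an unadjusted p below 0.05, 2 were higher and 0 lower, against 9.84% and 11.3%. Of the 16, 12 lay above their day 3 value (75%), against 46.2% of all tested genes. After the rescaling without the small RNA genes 16 of 16 did, but it raised every ratio by 0.15 and the median of expressed genes to 0.09. CENPE, a kinetochore motor, was called higher on day 5 than on day 0 (17.6 against 10.1 FPKM, log2 0.81). The difference between the replication genes and the mitosis genes was not tested. TOP2A, the topoisomerase that separates replicated chromosomes, was at 89.7, 96.9 and 123 FPKM, and MKI67, a marker of cycling cells, at 16.4, 20.4 and 25.6, neither with a call.

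**Figure D4:**
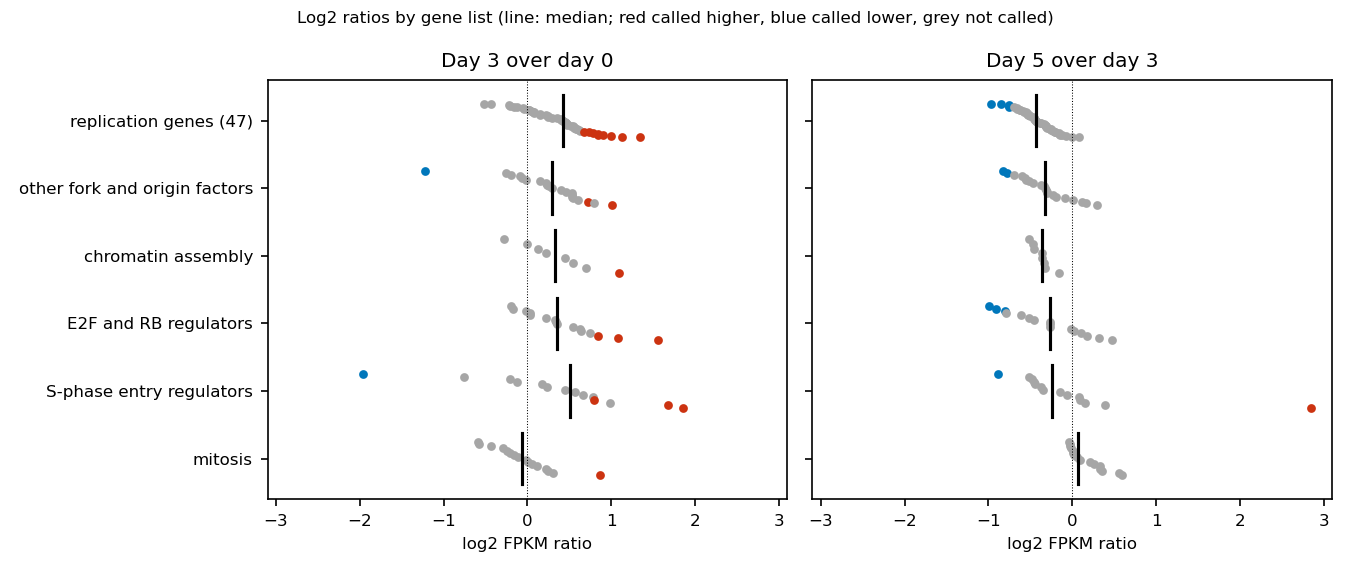
Log2 FPKM ratios of single genes in 6 lists for day 3 over day 0 and day 5 over day 3, with a black line at each list's median, red where called higher, blue where called lower and grey where not called. The replication genes' medians are 0.43 and -0.43, and those of the mitosis genes -0.06 and 0.07.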

How the data were processed

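Poly-adenylated RNA from WA01 cells was sequenced in 6 libraries, 2 per day. Per the submitters' processing notes, TopHat2 2.0.10 and Cuffdiff 2.1.1 were used with hg19. Annotation and strand setting: not given in the sources used here. The authors' deposited table holds an FPKM value per gene and day, with libraries combined, and for each of 3 comparisons the deposited p-value, q-value and test statistic, a score. The deposited q values equal a Benjamini-Hochberg adjustment over all 48572 tested rows to within 5.25e-07. The smallest deposited p is 5e-05, so the smallest q values are tied. Log2 ratios were computed from FPKM with pandas 2.3.3. The implied standard error is that ratio divided by the test statistic. All 141 member rows were tested, and no filter on low values was applied. Locus starts were counted from 0 in the table (width equalled reference length for 1784 genes, against 238 for the other convention), and are printed counted from 1. The 8 members in merged loci (MCM7, ORC4, DBF4, POLA1, RFC4, PCNA, RPA3 and TYMS) were kept. By rule, up to 4 called genes per list were named, those with the largest log2 change in any comparison among genes reaching 5 FPKM in the group with more expression. Further list and marker genes, DONSON, TONSL, TFDP2, E2F1, E2F2, LIN54, CCND2, CCNE1, TOP2A, MKI67, SOX2, LIN28A, REV3L, POLH, POLB and POLQ among them, were chosen after their values were seen. The replication genes and all lists were chosen with earlier results of these data known. Nothing in the labels says whether replicates were separate cultures, so p-values may measure technical spread only.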

Additional observations from a re-analysis of the deposited data

How the results depend on the processing

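Of 45 alternative values computed for the 9 summary results of the replication genes, 34 stayed close to the reported value, 10 moved and 1 reversed. The 34 include the settings at an FPKM of at least 1 or 5, which could move nothing, since no member was below 8.06 FPKM on any day. With a q threshold of 0.01, the counts became 4 higher on day 3 than on day 0, 1 lower on day 5 than on day 3, and 0 upward and 1 downward for day 5 against day 0. With a normal p of the test statistic they became 1, 0, 0 and 1. Adjusting the deposited p within each comparison left 2 lower on day 5 than on day 3 (ORC1 and MCM5, with GINS3, MCM4 and RPA2 lost) and moved no other count. Rescaling without MIR4461, MIR1244-1 and MIR1244-3, which hold 27%, 25.9% and 21.9% of the FPKM sum on days 0, 3 and 5, gave medians of -0.29 for day 5 over day 3 and 0.04 for day 5 over day 0. That change of sign follows from the shift of 0.13 in all ratios. Under the same rescaling 37 members were highest on day 3 and 3 on day 5, and under median centring 36 and 0. A fold of at least 1.5 after centring changed no count, and a level of at least 1 FPKM could change none. No paired analysis was possible because the table holds 1 value per group, and leaving out a replicate could not be run for the same reason.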

Other observations

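The polymerases of translesion synthesis and repair, which copy damaged templates or fill repair gaps, were read as a further list. Of 10 tested genes, day 3 against day 0 gave 1 call upward and 0 downward by the Cuffdiff q (2 and 0 at an unadjusted p below 0.05), at a median log2 ratio of 0.20, and day 5 against day 0 gave 2 upward and 0 downward (also 2 and 0). Over all tested genes, 8.96% were called higher on day 3 than on day 0, and 12.2% on day 5 than on day 0. REV3L, the catalytic subunit of polymerase zeta, was at 1.09 FPKM on day 0, 2.91 on day 3 and 4.65 on day 5, and was called higher on both later days than on day 0. POLH, polymerase eta, was at 1.59, 3.76 and 4.72 FPKM and was called higher on day 5 only, in a locus merged with another gene. Both were named after their values were seen, since they lie below the level of 5 FPKM used for naming. POLB, the base excision repair polymerase, was at 28.6, 27.2 and 30.6 FPKM, and POLQ at 4.18, 3.8 and 4.17, without a call.

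The E2F-type motif was also read across the tested genes. The 649 genes that hold it had a median log2 ratio of 0.13 for day 3 over day 0 and -0.15 for day 5 over day 3, against 0.05 and -0.05 in the 9718 genes that do not. Genes with the motif were called less often in both directions. On day 3 against day 0, 8.01% of them were called higher and 8.94% lower, against 9.55% and 10.6% without it. On day 5 against day 3, 3.54% were called higher and 5.86% lower, against 5.77% and 6.75% without it. Among the 41 replication genes with a promoter, the 21 that hold it had medians of 0.35 and -0.47, against 0.42 and -0.34 in the 20 that do not. These values are descriptions without a test. In the mitosis list the motif was present in 1 of 13 genes with a promoter and CCAAT in 11 of 13.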
